A study of Mus musculus with 2 samples.

Results

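miR-297 and miR-466, together with miR-467 and miR-669, form 4 related families of mouse microRNAs (miRNAs), most of them encoded in a large cluster inside an intron of Sfmbt2. Their 71 probes were taken by name from the 1141 miRNA probes of an array run on lung RNA. They comprise 4 probes of miR-297, 27 of miR-466, 13 of miR-467 and 27 of miR-669. The series compared 2 lung samples of wild-type mice, each on 1 single-colour array. One sample came from mice given monocrotaline (MCT) for 30 days at 14 weeks of age. Monocrotaline, an alkaloid of Crotalaria plants, damages pulmonary endothelium and serves in rodents as a model of pulmonary arterial hypertension. The other came from untreated mice, for which the sources used here state no age of their own. They also do not say whether a sample was 1 lung or a pool, or what pulmonary pressure was reached.

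Sfmbt2 encodes a Polycomb group protein and is an imprinted gene, expressed from the paternal allele in early embryos and placenta. The cluster in its intron grew by tandem duplication in rodents. Each unit is a hairpin whose 5p arm, rich in U and G, pairs with a 3p arm rich in A and C. The cluster is best known from embryonic stem cells and trophoblast, and single members have been studied elsewhere. miR-466l stabilises the Il10 transcript in mouse macrophages, miR-467 represses thrombospondin-1 in endothelial cells, miR-669a represses MyoD in cardiac progenitors, and miR-466h-5p promotes apoptosis in hamster ovary cells.

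Symbols were matched to the RefSeq gene table of GRCm38.p6, which lists 81 hairpin genes of the 4 families. Of these, 71 lie within Sfmbt2 on chromosome 2 and 10 elsewhere. All 71 probes matched at least 1 hairpin gene. For 57 probes every matched gene was in the cluster, for 9 every gene was elsewhere, and for 5 genes of both kinds matched. The array annotation gives 7 probes more than 1 mature name, so that the 71 probes cover 80 names. The miR-466b-3p probe also stands for miR-466c-3p and miR-466p-3p, and the miR-466a-3p probe for miR-466e-3p. A signal therefore cannot be assigned to a single hairpin of the cluster.

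The sequences are those of the array's targets, written 5′ to 3′. The first set holds the 5 members that were at least 2-fold higher on the MCT array, with the seed (bases 2 to 8, which pair with target transcripts) in capitals. All 5 are rich in A and C.
miR-466b-3p: aUACAUACacgcacacauaaga
miR-466l-3p: uAUAAAUAcaugcacacauauu
miR-466a-3p: uAUACAUAcacgcacacauaaga
miR-669i: uGCAUAUAcacacaugcauac
miR-467e-3p: aUAUACAUacacacaccuauau

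The second set shows 3p arms of miR-467 hairpins that are alike but for 3 bases near the 3′ end, which are in capitals. They share the seed and had different ratios between the arrays.
miR-467e-3p: auauacauacacacaccUaUaU
miR-467c-3p: auauacauacacacaccUaUaC
miR-467d-3p: auauacauacacacaccUaCaC
miR-467b-3p: auauacauacacacaccAaCaC

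The third set is a pair of miR-669a 3p arms that differ at 1 base, in capitals.
miR-669a-3-3p: acauaacauacacacacaUguau
miR-669a-3p: acauaacauacacacacaCguau

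The fourth set shows long simple repeats, with the longest alternating run in capitals. These members had ratios below 0.
miR-466i-5p: UGUGUGUGUGUGUGUGUGUG
miR-466h-3p: uacgcacgCACACACACAC
miR-669c-3p: uACACACACACACACAaguaaa

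The fifth set shows 5p arms, with the stretch ACAUGUAC in capitals where it occurs. The members that hold it were not detected. Among members that lack it, miR-297a-5p was detected, and miR-297c-5p, which differs from miR-297a-5p by 1 base, was not.
miR-466a-5p: uauguguguguACAUGUACaua
miR-466b-5p: ugauguguguguACAUGUACau
miR-297a-5p: auguaugugugcaugugcaugu

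Each miRNA had 3 repeat spots per array. A miRNA was taken as detected when at least 2 of its spots exceeded the 95th percentile of the array's empty spots, an intensity of 284 on the MCT array and 116 on the untreated array. The MCT array had the higher background, with a median empty spot of 253, against 101 on the untreated array. Of the lung markers checked, endothelial miR-126-3p, smooth muscle miR-143-3p and miR-145-5p, and 4 of 5 epithelial miRNAs were detected on both arrays. Of the 2 myeloid markers, miR-142-3p was not detected and miR-223-3p stood at a log2 ratio (MCT over untreated) of -1.21 ± 0.21, whose part in the results was not tested. Lymphoid miR-150-5p and red cell miR-451 were detected on both arrays, miR-451 at normalized log2 levels of 15.08 on the MCT and 15.12 on the untreated array. Red cell miR-144-3p was not detected. Liver miR-122-5p was detected on the untreated array alone. The brain and heart muscle markers, 2 of each, were not detected. None of the 6 germ cell miRNAs was detected on either array. Of the 6 miRNAs of embryonic stem cells and trophoblast, 0 were detected on the MCT array and 1, miR-290-5p, on the untreated array. The part of blood or other tissue in the samples was not tested. Normalized levels are log2 intensities after background correction and quantile normalization, and ± gives the standard deviation over the repeat spots. With 1 array per group there was no test and no p-value, and no spread between animals is known.

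On the MCT array 37 of the 71 members were detected (52.1%), and on the untreated array 40 (56.3%). Over all miRNA probes the shares were 27.7% on the MCT array and 35.3% on the untreated array. Some members hold a run of at least 8 alternating C and A or U and G bases. On either array 28 of the 36 such members were detected (77.8%), and 13 of the 35 without one (37.1%). Of the other miRNAs 34.4% were detected on either array, and all 6 of those with such a run were. With limits set instead by the array's dim miRNA spots, 229 on the MCT array and 114 on the untreated array, 47 members were detected on the MCT array (46.0% of all miRNAs) and 40 on the untreated array (37.1%). In all, with the empty-spot limits, 36 members were detected on both arrays, 1 on the MCT array alone, 4 on the untreated array alone and 30 on neither. Of all 1141 miRNAs, 316 were detected on the MCT array, 403 on the untreated array, 310 on both and 732 on neither. Detection on the untreated array alone was thus the more common kind over the whole array. The 4 members of that kind exceeded the dim-spot limits on both arrays. As these are lung homogenates, fewer cells of a type and less RNA per cell cannot be told apart.

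Detection differed between the arms and with the length of alternating runs. Of the 29 members named as 3p arms, 21 were detected on either array. Of the 30 named as 5p arms, 11 were, and of the 12 whose name gives no arm, 9 were. All 3p arms were rich in A and C, with U and G making up no more than 50% of the bases, and all 5p arms were rich in U and G. By base composition, 26 of 35 A/C-rich members and 15 of 36 U/G-rich members were detected on either array. For the other miRNAs of the array the counts were 135 of 433 A/C-rich and 233 of 637 U/G-rich. The longest alternating run was grouped as 0 to 5, 6 to 7, 8 to 9 and 10 or more bases. By C and A run, 0 of 3, 8 of 14, 9 of 9 and 9 of 9 A/C-rich members were detected. By U and G run, the counts of U/G-rich members were 0 of 7, 5 of 11, 8 of 16 and 2 of 2. The parts of arm and run in detection were not tested.

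The 24 hairpins with a probe for each arm gave the same picture. In 11 the 3p arm alone was detected on either array, in 2 the 5p arm alone, in 8 both arms and in 3 neither. The miR-467 family was the plainest case, since all 5 of its 3p arms and none of its 5 5p arms were detected. These 5p arms had U and G runs of at most 5 bases, a range in which no U/G-rich member was detected. miR-467a-3p had intensities of 2062, 1981 and 2017 on the MCT array and 892, 951 and 972 on the untreated array. Its partner miR-467a-5p, a probe that matched 10 hairpin genes of the cluster, had 209, 206 and 208 on the MCT array and 108, 104 and 109 on the untreated array, under both limits. Signals of different probes depend on their sequences, so these values do not rank the arms by abundance.

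Of the 36 U/G-rich members, 21 were detected on neither array, and 8 of these share a sequence feature. The stretch ACAUGUAC was searched in the targets as written, without the opposite strand, after the values had been seen. It occurs in 8 targets, or 0.701% of the 1141 on the array, all 8 of them in the miR-466 family. None of the 8 was detected on either array. miR-466b-5p had intensities of 220, 213 and 208 on the MCT array and 101, 104 and 108 on the untreated array, all within the background. Of the 28 U/G-rich members without the stretch, 15 were detected on either array and 13 were not. miR-297a-5p was one of those detected, with 495, 515 and 527 on the MCT array and 182, 197 and 179 on the untreated array. It differs from the undetected members that hold the stretch at other bases too. Its near neighbours miR-297c-5p, which differs by G17A, and miR-297b-5p, by U16A and G17A, also lack the stretch. Both were detected on neither array, so the stretch is a description only.

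A member was called higher or lower in MCT-treated lung when it was detected on either array, the log2 ratio of MCT over untreated reached 1 or -1 (2-fold), and no spot of one array overlapped those of the other. Of the 41 members detected on either array, 5 were higher (12.2%) and 0 were lower. Over all 409 miRNAs detected on either array, 4.16% were higher and 2.20% lower. Of the other 368 miRNAs, 12 were higher (3.26%). Within 1.5-fold lay 29 of the 41 members (70.7%) and 317 of the 409 miRNAs (77.5%). The members made up 5 of the 17 miRNAs called higher.

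The count depended on the scaling, for members and for all miRNAs alike. Without normalization 19 members were higher, beside 34.7% of all detected miRNAs. After centring on the median there were 12 (23.7% of all), after scaling by the 5S probes 12 (23.7%), and after centring on the 75th percentile 8 (12.0%). With the trend of GC content taken out, 3 members were higher (1.96% of all) and 1 was lower (1.47%). Without background correction 4 were higher (3.42%). At a threshold of 1.5-fold, 7 members were higher (11.2%) and 4 lower (10.8%).

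**Figure D1:**
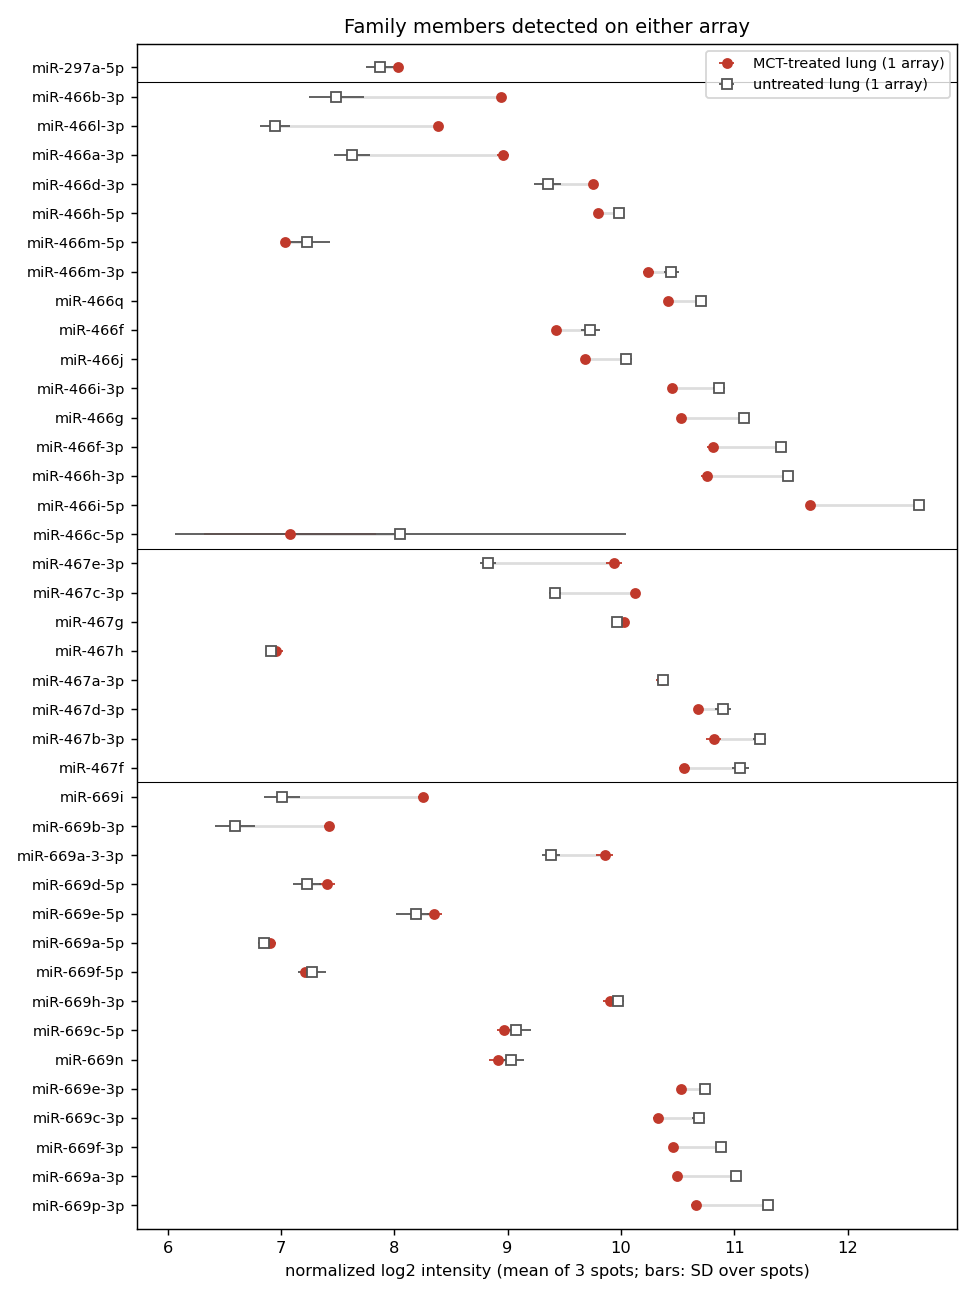
Normalized log2 intensity (x axis) of 40 members detected on either array, ordered by family and, within a family, by log2 ratio. Filled circles are the MCT array and open squares the untreated array, with bars for the standard deviation over 3 spots; the widest gaps with MCT to the right are those of miR-466b-3p, miR-466l-3p and miR-466a-3p, and the wide bars of miR-466c-5p come from 1 bright spot on each array.

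The largest ratio of the families was that of miR-466b-3p. Its intensities were 887, 902 and 892 on the MCT array and 151, 149 and 176 on the untreated array. The groups of spots lay far apart, and the normalized levels were 8.94 ± 0.017 in MCT-treated and 7.49 ± 0.24 in untreated lung, a log2 ratio of 1.45 ± 0.24. The miR-466a-3p target is that of miR-466b-3p with 1 more base at the 5′ end, which shifts the seed by 1 base. It had 871, 934 and 903 on the MCT array and 157, 169 and 177 on the untreated array, a log2 ratio of 1.33 ± 0.17. These probes can bind the same molecules, so they are not separate evidence. The miR-466d-3p target follows that of miR-466a-3p up to its own last base. It had 1493, 1553 and 1536 on the MCT array and 383, 431 and 454 on the untreated array, and its log2 ratio was 0.40 ± 0.13, short of 2-fold.

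miR-466l-3p had intensities of 647, 640 and 624 on the MCT array and 120, 126 and 135 on the untreated array. The untreated spots lay just above the limit of 116, and the log2 ratio was 1.43 ± 0.13. miR-669i had 607, 570 and 586 on the MCT array and 136, 120 and 137 on the untreated array, with a log2 ratio of 1.25 ± 0.17. In the same family miR-669h-3p, detected on both arrays, had a ratio of -0.08 ± 0.080, and miR-669j and miR-669k-3p were not detected on either. Without background correction miR-669i had a ratio of 0.93, and its call ended. With the GC trend taken out, miR-466l-3p had 0.97 and miR-467e-3p 0.76, and both calls ended.

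The 3p arms of the miR-467 hairpins gave a graded series. miR-467e-3p had intensities of 1692, 1669 and 1623 on the MCT array and 302, 317 and 319 on the untreated array, a log2 ratio of 1.11 ± 0.097. miR-467c-3p differs from it by U22C (miR-467e-3p base first, counted from the 5′ end). Its intensities were 1856, 1767 and 1796 on the MCT array and 427, 451 and 456 on the untreated array, a ratio of 0.71 ± 0.069. miR-467d-3p differs from miR-467e-3p by U20C and U22C. It had 2478, 2367 and 2413 on the MCT array, 1394, 1356 and 1428 on the untreated array and a ratio of -0.22 ± 0.080. miR-467b-3p, with U18A as well, had -0.40 ± 0.087. The MCT spots of all 4 lay between 1623 and 2764, whereas the untreated spots ran from 302 to 1723, so the probes differed mainly on the untreated array.

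The miR-669a pair differed likewise. miR-669a-3-3p had intensities of 1652, 1588 and 1565 on the MCT array and 417, 429 and 460 on the untreated array. Its log2 ratio was 0.47 ± 0.11. With U19C as the sole difference, miR-669a-3p had 2219, 2196 and 2157 on the MCT array and 1500, 1438 and 1454 on the untreated array, and a ratio of -0.53 ± 0.052. Over the 4 pairs of members that differ by 1 base and were detected on both arrays, the ratios differed by a median of 0.66 log2 and at most by 1.00. The smallest difference was that of miR-467b-3p and miR-467d-3p, with ratios of -0.40 ± 0.087 and -0.22 ± 0.080, not far above the spread over the repeat spots. The other differences exceeded that spread more clearly, and the spread between arrays is not known. The miR-467 pairs share members, so they are not separate evidence.

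No member was 2-fold lower, and the lowest ratio was that of miR-466i-5p. It is a pure repeat of U and G and had the highest intensities of the families, 5091, 4860 and 4882 on the MCT array and 4383, 4403 and 4338 on the untreated array. After normalization it stood at 11.67 ± 0.035 in MCT-treated and 12.63 ± 0.012 in untreated lung, a log2 ratio of -0.96 ± 0.037. miR-466h-3p had -0.72 ± 0.051, miR-669p-3p -0.63 ± 0.063, miR-466f-3p -0.61 ± 0.050 and miR-466g -0.55 ± 0.038. The brightest members of miR-467 were miR-467b-3p, miR-467d-3p and miR-467f, whose ratio was -0.49 ± 0.091. In miR-669 they were miR-669p-3p, miR-669e-3p and miR-669a-3p on the MCT array, with miR-669f-3p in place of miR-669e-3p on the untreated array, and all 4 had ratios below 0. The raw intensities of these members were higher on the MCT array, as on most probes, and the ratio was negative only relative to the other miRNAs. Without normalization between the arrays miR-466i-5p had a ratio of 0.15 and miR-466h-3p 0.30, while the median of all miRNAs detected on both arrays was 0.89.

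By family, the 15 miR-466 members detected on both arrays had ratios from -0.96 to 1.45 with a median of -0.29, of which 5 were above 0 and 10 below. The 7 miR-467 members ran from -0.49 to 1.11 with a median of -0.01, and the 13 miR-669 members from -0.63 to 1.25 with a median of -0.11. In miR-297 only miR-297a-5p was detected, with a ratio of 0.16 ± 0.13. Over the 36 members the median was -0.16, against 0.04 for the 274 other miRNAs detected on both arrays. Under all 4 scalings other than quantile and cyclic loess, the medians of members and others were all above 0, and the members' median was then the higher (0.76 against 0.66 when centred on the median). These 4 differ from each other only by a constant per array. The gap between members and others is therefore the same in each, and they count as 1 comparison. The direction of the families as a whole thus depended on the scaling.

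**Figure D2:**
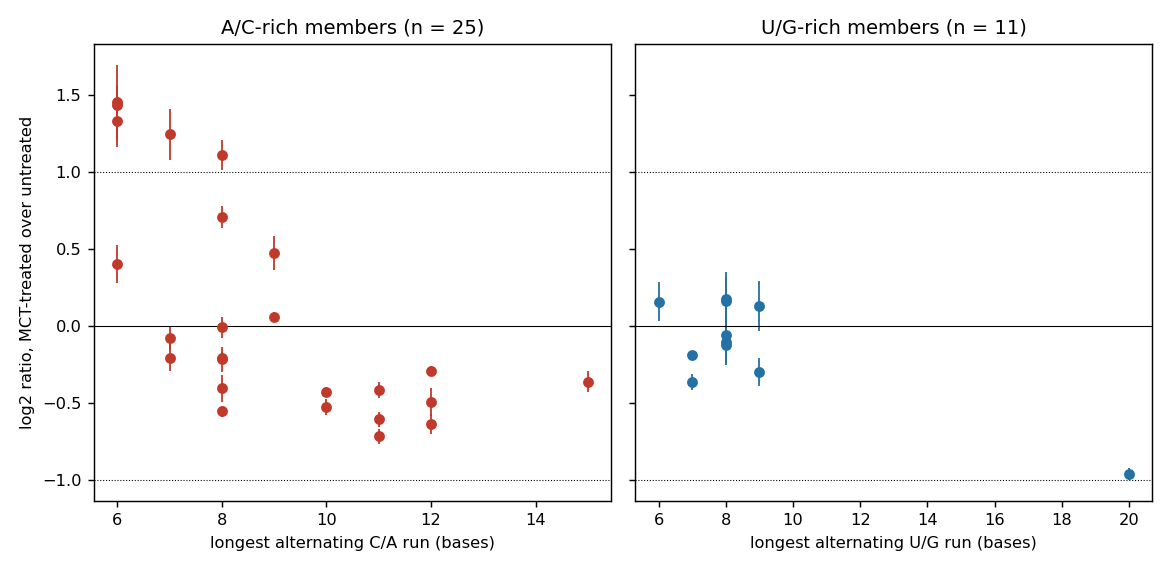
Log2 ratio of MCT-treated over untreated lung (y axis) by the longest alternating run of C and A in the 25 A/C-rich members (left) and of U and G in the 11 U/G-rich members (right) detected on both arrays; bars are standard deviations over repeat spots and dotted lines mark 2-fold. In the left panel the 9 members with runs of 10 bases or more all lie below 0.

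Runs of alternating bases set the families apart from the rest of the array. A run of at least 8 alternating C and A or U and G bases was found in 36 of the 71 members (50.7%) and in 6 of the 1070 other miRNAs (0.561%). Among A/C-rich members detected on both arrays, the 9 with a C and A run of 10 bases or more had a median ratio of -0.49 and ranged from -0.72 to -0.29. The 9 with runs of 8 or 9 bases had a median of -0.01, from -0.55 to 1.11. The 7 with runs of 6 or 7 bases had a median of 1.25, from -0.20 to 1.45, and held 4 of the 5 higher members. Over the 25 members the ratio and the run length had a Pearson r of -0.67 and a Spearman rho of -0.75. The members share sequence and can share molecules, so this is a description with no test. After median centring, the same groups had medians of 0.31, 0.83 and 1.83, so their order stayed while every median lay above 0.

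Among the 11 U/G-rich members detected on both arrays, the ratio did not fall steadily with the U and G run. The 3 with runs of 6 or 7 bases had a median of -0.19 and the 7 with 8 or 9 bases -0.06. The 1 with a longer run, miR-466i-5p, had -0.96. Pearson r was -0.80 and Spearman rho -0.22. The few other miRNAs on the array with a run of at least 8 bases have runs of U and G, not of C and A. They were on the low side. miR-574-5p had a run of 13 bases and a ratio of -0.76 ± 0.056. miR-1187 had a run of 11 bases and -0.76 ± 0.065. All 5 of these other miRNAs detected on both arrays had ratios below 0, with a median of -0.48. The 26 members with runs of at least 8 bases of either kind had a median of -0.25. Under median centring the medians were 0.38 for the 5 miRNAs and 0.51 for the 26 members, against 0.68 for all miRNAs detected on both arrays.

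**Figure D3:**
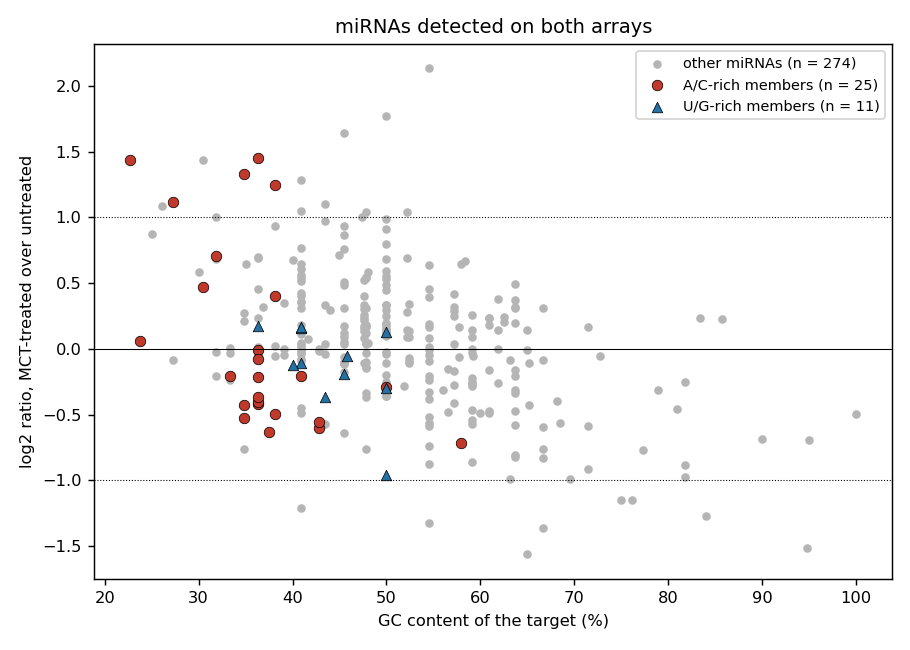
Log2 ratio of MCT-treated over untreated lung (y axis) by GC content of the target in percent (x axis) for the miRNAs detected on both arrays. Circles are the 25 A/C-rich members, triangles the 11 U/G-rich members and grey points the 274 other miRNAs; dotted lines mark 2-fold, and the 5 members above the upper line are all A/C-rich and at 40% GC or less.

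GC content varied along with the ratio, in the families and in the rest of the array. The Pearson r of ratio and GC content was -0.52 over the 36 members and -0.47 over the 274 other miRNAs. At a GC content of 40% or less, the 22 members had a median ratio of -0.04 and the 32 other miRNAs 0.22. Between 40% and 60%, the 14 members had -0.25 and the 182 others 0.10. All 5 higher members had a GC content of 40% or less, from 22.7% for miR-466l-3p to 38.1% for miR-669i. In that range 5 of 25 members detected on either array were higher, and 3 of 41 other miRNAs. The part of GC content in the ratios was not tested beyond the removal of its trend.

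**Figure D4:**
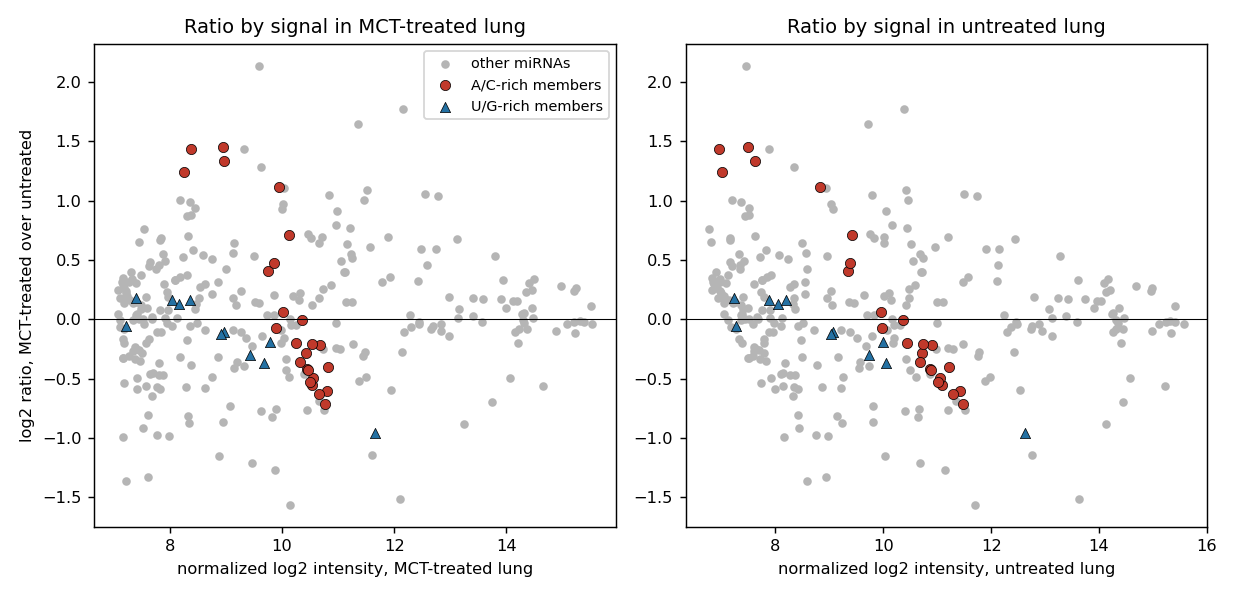
Log2 ratio of MCT-treated over untreated lung (y axis) by normalized log2 intensity in MCT-treated lung (left) and in untreated lung (right) for miRNAs detected on both arrays; circles are A/C-rich members, triangles U/G-rich members and grey points other miRNAs. The A/C-rich members fall along a narrow descending band in both panels, while the other miRNAs scatter.

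Within the families the ratio followed the signal closely. Over the 25 A/C-rich members detected on both arrays, ratio and level had a Pearson r of -0.90 with the MCT array and -0.97 with the untreated array. The ratio contains both levels, which by itself lowers the second value and raises the first. For the 194 other miRNAs in the same range of untreated levels, the r was 0.32 with the MCT array and -0.11 with the untreated array. The mean intensities of the 25 members ran from 588 to 2647 on the MCT array, a span of 4.50-fold, and from 127 to 1974 on the untreated array, a span of 15.5-fold. The standard deviation over their normalized levels was 0.72 log2 on the MCT array and 1.41 log2 on the untreated array. The 11 U/G-rich members had a narrower range of ratios, from -0.96 to 0.18, and an r of -0.90 with the level on the MCT array and -0.94 with that on the untreated array.

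Both arms of a hairpin were detected on both arrays in 6 cases. In 5 of these the 3p arm had the lower ratio. miR-466h-3p had -0.72 ± 0.051 beside -0.19 ± 0.030 for miR-466h-5p. In miR-669 the 3p and 5p arms had -0.36 and -0.11 for miR-669c, -0.21 and 0.16 for miR-669e, and -0.43 and -0.06 for miR-669f. The exception was miR-466i, with -0.42 ± 0.053 for the 3p arm and -0.96 ± 0.037 for the 5p arm. The 3p arms of these 6 hairpins have C and A runs of 8 to 15 bases. For the 4 higher members named as 3p arms, the 5p probe of the same name was not detected. Their hairpins are therefore not among the 6, and the count does not describe them.

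**Figure D5:**
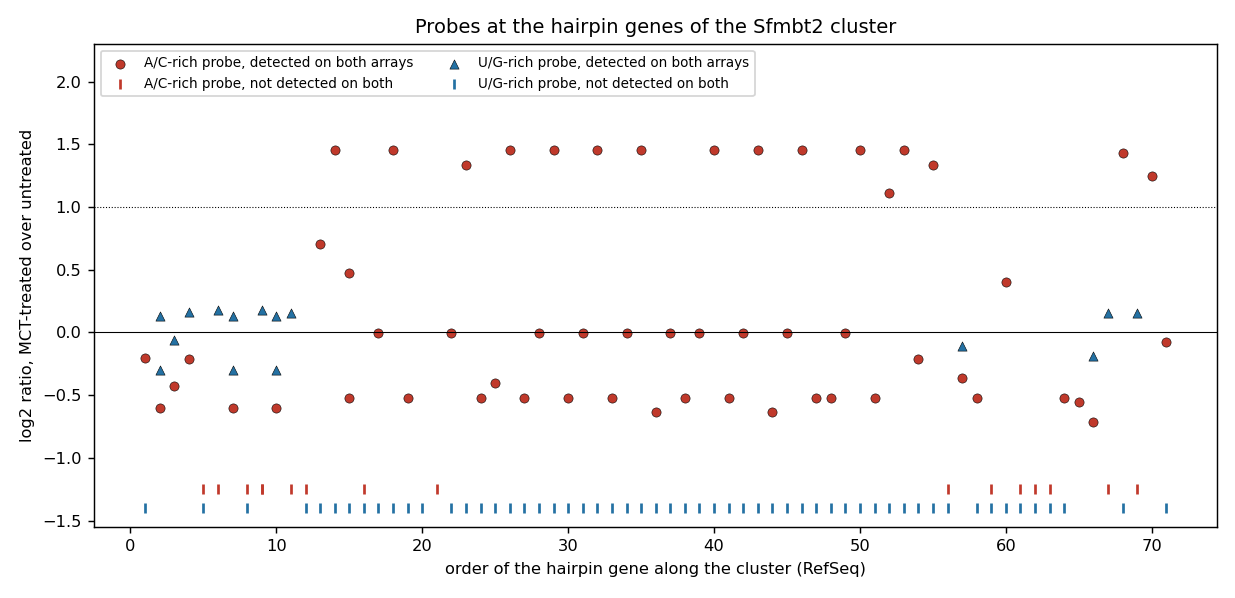
Log2 ratio of MCT-treated over untreated lung (y axis) of each probe at every hairpin gene of the Sfmbt2 cluster that it matched, in the order of the 71 genes (x axis); a probe that matched several genes appears at each of them with the same value. Circles are A/C-rich and triangles U/G-rich probes detected on both arrays, and ticks at the bottom are probes that were not; the row of circles near 1.45 is the single probe of miR-466b-3p at its 11 genes.

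All 5 higher members matched genes of the Sfmbt2 cluster alone. Of the 57 members placed there alone, 29 were detected on either array, and the 25 detected on both had a median ratio of -0.08. Of the 9 placed elsewhere, 8 were detected on either array and 0 were higher, and the 7 detected on both had a median of -0.37. Members from outside the cluster include miR-466i, miR-466q and miR-467f, whose repeats run to 11 bases or more, so place and repeat length cannot be told apart with these few probes.

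Seeds were shared across families and did not fix the ratio. The 71 members have 42 seeds, of which 8 are shared by 3 or more members, 30 members in all. The seed UAUACAU is shared by 7 members, the 3p arms of miR-467b, miR-467c, miR-467d, miR-467e, miR-669d-2, miR-669l and miR-669m. The 4 of these that were detected had ratios from -0.40 to 1.11. The seed AUACAUA, shared by miR-297a-3p, miR-466a-3p, miR-466d-3p, miR-467g and miR-669d-3p, had ratios from 0.06 to 1.33 in its 3 detected members. Among U/G-rich members the seed AUGUGUG of miR-466a-5p, miR-466e-5p and miR-466p-5p was not detected, and GUGUGCA of miR-466h-5p, miR-466j and miR-466m-5p was detected in all 3 on at least 1 array. AUGUGUG is also the seed of miR-1187, which was detected. The remaining 4 shared seeds have 3 members each: AUAUACA in miR-467a-3p, miR-669b-3p and miR-669f-3p, GUGUGUG in miR-466d-5p, miR-466i-5p and miR-466k, GUUGUGU in miR-669a-5p, miR-669f-5p and miR-669l-5p, and UGUAUGU in the miR-297 5p arms.

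Of the 5 members detected on 1 array, miR-669b-3p was above the limit on the MCT array alone, with 350, 349 and 332 there and 111, 99 and 115 on the untreated array. In the processing reported, it was at least 1.67-fold higher on the MCT array, with its untreated level set to that of the dimmest detected miRNA there. The bound depends on the processing, as its log2 ratio was 0.83 in the processing reported and 0.45 with the GC trend removed. On the untreated array alone, miR-466m-5p was detected, and the bound on its decrease with MCT was 1.11-fold, within the spread of its spots. miR-467h and miR-669a-5p had no bound above 1. The value of miR-466c-5p rested on 1 bright spot per array, with 238, 483 and 232 on the MCT array and 117, 920 and 132 on the untreated array, and its ratio of -0.97 ± 2.13 lay within the spread of its spots.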

How the data were processed

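Lung RNA of 1 MCT-treated and 1 untreated sample, 2 µg each, was poly(A)-tailed, tagged and stained with Cy3 on a microfluidic chip with probes for miRBase miRNAs, per the labels' protocols. The deposited scanner tables hold 1 intensity (a pixel median) for each of 3968 spots, with no background subtraction and no build, per the file headers. The authors' series table holds a processed intensity per probe, with its processing not given in the sources used here.

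Intensities were background-corrected with normexp (offset 50) on all spots, since the tables have no local background. Control spots were then left out, and the log2 values of miRNA spots were quantile normalized (limma 3.58.1, R 4.3.3) and averaged over 3 spots. All 1141 miRNAs were processed together. The steps were tested on simulated data in which only miRNAs well above the background were changed. The simulation had no GC trend and no binding shared between similar probes, so it does not cover these. With 1 array per group, precision is limited by their number. The detection limit and the rule for calls stand with the results. Alternatives covered background, offset, normalization, spots, detection, threshold, the GC trend (lowess, statsmodels 0.14.6, over the 310 miRNAs detected on both arrays) and the authors' values (pseudocount 50). Named were all calls, the 3 largest ratios per family and direction, the 3 brightest per family and array, members detected on 1 array, both arms of detected or called hairpins, near-identical targets of calls, and shared seeds. The members, lists and alternatives were chosen with earlier results of these data known. One member's own values are not reported here, though it is counted. Base composition, repeat runs and the 8-base stretch were examined after the values were seen. Gene names came from RefSeq (GRCm38.p6), and sequences from the array tables, of which 8 are in RefSeq's miRNA table and are identical there.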

Additional observations from a re-analysis of the deposited data

How the results depend on the processing

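The count of members called higher was 5 in the processing reported. It was 19 without normalization, 12 when each array was centred on its median, 8 when centred on the 75th percentile, 12 when scaled by the 5S probes and 3 with the GC trend removed. The first 4 of these contained all 5 members, and the last contained 3 of them. Under the other alternatives the count was 4 to 7. The count called lower was 0, except for 1 with the GC trend removed (miR-466i-5p, at -1.06) and 4 at a threshold of 1.5-fold. The median log2 ratio of the members detected on both arrays was -0.16. It was 0.98 without normalization, 0.76 centred on the median, 0.39 centred on the 75th percentile, 0.76 scaled by the 5S probes, -0.34 with the GC trend removed and -0.28 with the authors' deposited table. The median of all miRNAs detected on both arrays was 0.02 in the processing reported, 0.89 without normalization, 0.68 centred on the median or scaled by the 5S probes and 0.30 centred on the 75th percentile. Leaving out 1 of the 3 repeat spots kept the 5 calls. A detection limit from the dim miRNA spots gave 47 detected members on the MCT array and 40 on the untreated array. No paired analysis was possible because each group has 1 array.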

Other observations

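Several dim 3p arms stood between the detection limits on the MCT array. With the limit taken from the dim miRNA spots, 7 members (9.86%) were above it on the MCT array alone and 0 on the untreated array alone. This limit let through more probes of every kind on the MCT array, 525 of all 1141 miRNAs (46.0%), against 423 (37.1%) on the untreated array. The split is therefore no trait of the families. The 7 members were miR-297a-3p, miR-669b-3p, miR-669d-2-3p, miR-669d-3p, miR-669l-3p, miR-669m-3p and miR-669o-5p, of which 6 are rich in A and C. miR-669m-3p had intensities of 281, 277 and 272 on the MCT array and 94, 92 and 97 on the untreated array, and a log2 ratio of 0.73 ± 0.062. miR-669l-3p had 244, 237 and 256 on the MCT array and 90, 84 and 93 on the untreated array, and a ratio of 0.61 ± 0.15. In the authors' deposited table, with a pseudocount of 50, the log2 ratio was 1.67 for miR-669m-3p, 1.22 for miR-669l-3p and 1.09 for miR-669b-3p. The authors' untreated values of these probes were 0.08, 0 and 19.19, so the sizes of these ratios rest largely on the pseudocount. The empty spots of the MCT array had a median of 253, above the median miRNA spot of 226, so that the limit used in the report is the stricter one there.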
